A study of Mus musculus with 3 samples.

Results

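The genes of cholesterol synthesis and of the SREBP2 pathway that controls it were examined across 3 Affymetrix arrays of the mouse T-lymphoma line WR19L. The set holds 26 genes: enzymes of the mevalonate and sterol pathways, the regulators of SREBP2, and the sterol carrier gene Stard4. Members were taken by gene symbol, from probe sets that carry that symbol alone, and each gene was read from the probe set with the highest mean signal. A probe set was named for 25 of the 26 members, of 18194 genes named on the array in all. No named probe set was held for Acat2, the cytosolic acetyl-CoA acetyltransferase at the entry of the pathway, so its expression was not analysed here and it enters the promoter counts alone.

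One array was of flippase-deficient WR19L cells, called DKO, made to express the Q84E mutant of human ATP11A stably. Another was of DKO cells that stably express the wild-type human protein, and the last of parental WR19L cells, which have neither the knockout nor a transgene. ATP11A is a flippase, a pump that brings phospholipids to the cytosolic side of the cell membrane. All cells came from a BALB/c line, were grown in medium with fetal calf serum, a source of lipoprotein cholesterol, and were left untreated. The labels name neither the genes knocked out nor the promoter of the transgenes, and do not say whether each line is 1 clone. DKO cells that carry no transgene were not analysed here. In ratios to parental cells, knockout, transgene and line derivation therefore cannot be told apart. In ratios of Q84E over wild-type ATP11A cells, the mutation and other differences between the DKO lines cannot be told apart either. The endogenous Atp11a probe set had 244 in Q84E, 253 in wild-type ATP11A and 478 in parental cells, and whether it lies in a deleted stretch is not given in the sources used here.

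With 1 array per group there is no replicate, no test across arrays and no p-value, and precision is limited by the number of arrays. The values are MAS5 signals, a linear measure of a probe set's brightness that the authors scaled to a common trimmed mean on every array. Signals of different genes cannot be set against each other, so all ratios are within a gene. As a measure of error between probe sets, the log2 ratios of paired probe sets of a gene were compared. Their SD, scaled to 1 probe set, was 0.096 to 0.11 above the 90th percentile of signal, where 14 members lie. It was 0.17 to 0.19 between the 75th and 90th percentiles, with 9 members, and 0.31 to 0.35 between the 50th and 75th, with 2 members, Mvk and Tm7sf2. That error does not cover differences between cultures. Both probe sets of a pair are read on the same arrays, so it also leaves out technical error that a whole array shares. In RNA from a whole culture, fewer cells with a transcript and less of it per cell cannot be told apart. Of 10 T cell markers 9 were measured, and 7 of them reached the 75th percentile on every array, while Cd3e and Cd5 were under the 50th on every array. None of the 4 measured B cell, 5 myeloid, 2 erythroid and 4 fibroblast markers reached the 75th percentile on any array, and the summed signals of these lists lay between 95.5 and 244.7.

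Cells make cholesterol from acetyl-CoA through mevalonate, isoprenoid diphosphates, squalene and lanosterol. The transcription factor SREBP2 is made as a membrane protein of the endoplasmic reticulum, where SCAP holds it and INSIG proteins retain the complex while sterols are abundant. When sterols fall, SCAP carries SREBP2 to the Golgi, a pair of proteases releases its active part, and genes for most enzymes of the pathway, for Insig1 and for Srebf2 itself are switched on. Dividing lymphocytes depend on the pathway and on lipoprotein uptake for the sterol of new membrane.

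The promoters of the pathway genes were searched for the letters of elements that SREBP2 and its partners are known to bind. RefSeq windows of GRCm38.p6 ran from 250 bases before to 50 bases after an annotated start site. They were held for 22 of the 26 members at 28 start sites. No window was held for Fdps, Fdft1, Sqle and Stard4, so these genes were not searched. The set printed here covers the genes for the factor itself, for its feedback retention protein, for HMG-CoA synthase, and for the member with the largest ratio of Q84E over wild-type ATP11A cells. Capitals mark matches on either strand to the sterol regulatory element TCACNCCAC, to its shorter form TCACNCCA, to the E-box CACGTG and to the NF-Y box CCAAT, which reads ATTGG on the other strand.
Srebf2, chr15:82147019-82147318, plus strand: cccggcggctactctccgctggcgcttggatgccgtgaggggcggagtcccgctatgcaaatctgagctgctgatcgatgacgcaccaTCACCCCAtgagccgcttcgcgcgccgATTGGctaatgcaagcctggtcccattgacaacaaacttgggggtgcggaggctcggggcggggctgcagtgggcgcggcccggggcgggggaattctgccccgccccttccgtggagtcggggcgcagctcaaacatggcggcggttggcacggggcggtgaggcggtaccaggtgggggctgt
Insig1, chr5:28071162-28071461, plus strand: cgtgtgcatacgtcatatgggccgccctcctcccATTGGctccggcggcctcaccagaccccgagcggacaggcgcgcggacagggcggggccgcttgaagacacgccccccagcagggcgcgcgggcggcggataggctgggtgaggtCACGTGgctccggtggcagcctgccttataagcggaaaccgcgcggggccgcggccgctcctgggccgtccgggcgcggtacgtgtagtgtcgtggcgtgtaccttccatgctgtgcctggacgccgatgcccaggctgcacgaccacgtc
Hmgcs1, chr13:119690101-119690400, plus strand: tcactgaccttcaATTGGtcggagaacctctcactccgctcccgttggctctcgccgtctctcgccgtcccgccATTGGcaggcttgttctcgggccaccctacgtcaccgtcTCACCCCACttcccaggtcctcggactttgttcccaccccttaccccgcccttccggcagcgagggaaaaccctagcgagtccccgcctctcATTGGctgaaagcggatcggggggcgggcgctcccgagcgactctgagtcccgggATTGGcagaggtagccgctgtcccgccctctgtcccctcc
Tm7sf2, chr19:6067801-6068100, minus strand: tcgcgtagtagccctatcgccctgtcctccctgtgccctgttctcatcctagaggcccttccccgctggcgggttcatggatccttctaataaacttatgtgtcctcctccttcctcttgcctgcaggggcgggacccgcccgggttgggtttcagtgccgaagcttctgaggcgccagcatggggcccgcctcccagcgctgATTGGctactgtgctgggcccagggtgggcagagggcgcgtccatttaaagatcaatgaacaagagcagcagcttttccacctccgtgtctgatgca

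The window of Hmgcs1 held a sterol regulatory element, TCACCCCAC, whose first base lies at -137 from the start site, with 4 NF-Y boxes at -237, -176, -45 and 11. Hmgcs1 was the only 1 of 22 members with a match to TCACNCCAC in these windows, which is 4.55% of them, against 1.5% of the 9431 compared genes with a window. By window it was 1 of 28, or 3.57%, against 1.24% of all 32851 windows. The shorter form TCACNCCA, contained in every longer match and added after the promoters had been seen, was found in Srebf2 at -162, in Msmo1 at -177 and in Hmgcs1. That is 3 of 22 members, or 13.6%, against 4.6% of compared genes, and 10.7% of member windows, against 4.36% of all windows. The E-box, which SREBPs can also bind, was held by 5 members, Dhcr7, Hsd17b7, Insig1, Sc5d and Scap, or 22.7%, against 11.6% of compared genes, and by 21.4% of member windows, against 7.15% of all windows.

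The NF-Y box, the site of a factor that acts beside SREBPs, was found in 18 of 22 members, or 81.8%, against 42.7% of compared genes, and in 18 of 28 member windows, or 64.3%, against 37.4% of all windows. The 4 members without it were Acat2, Mbtps1, Mbtps2 and Scap. The Sp1 box GGGCGG was found in 19 members, or 86.4%, against 67.2% of compared genes, and in 78.6% of member windows, against 35.7% of all windows. Mbtps2 had a match to none of the 5 motifs. Members with several start sites counted once if any of their windows held the motif, and the same was done for compared genes. These matches describe letters in the windows and are not shown to be bound in WR19L cells.

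**Figure D1:**
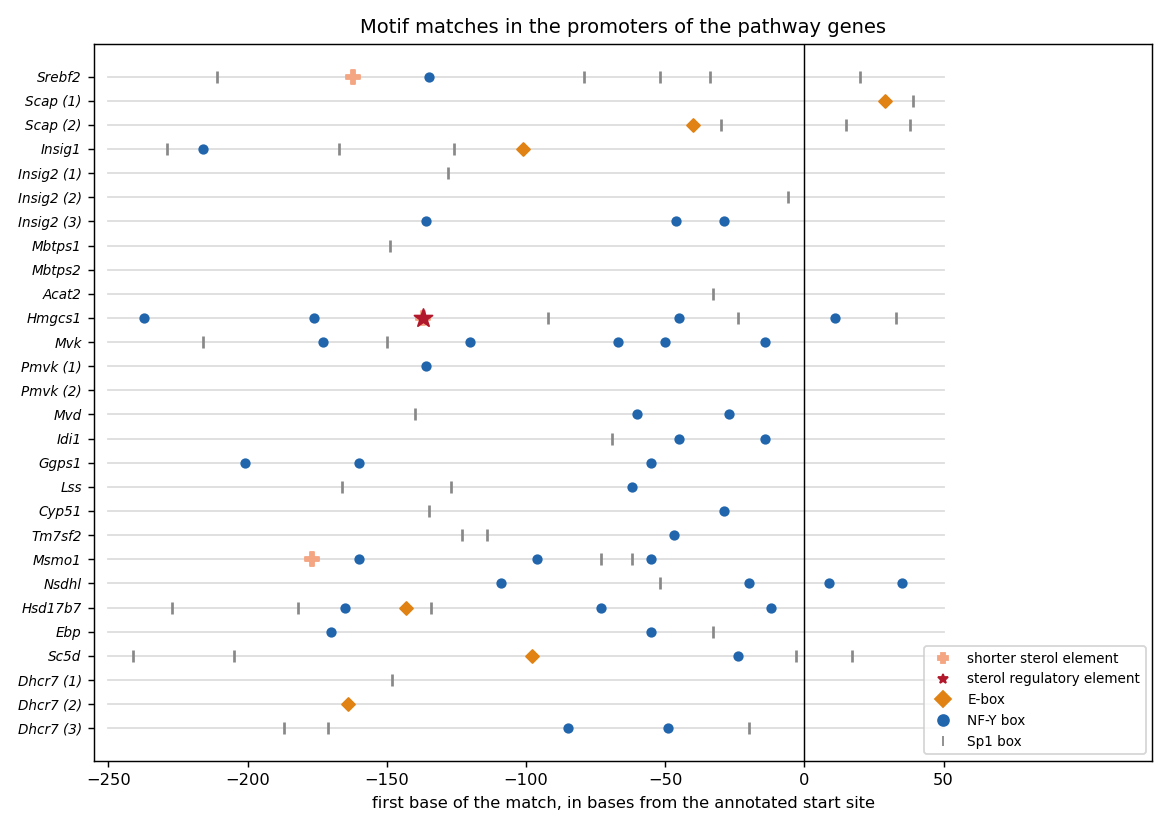
Matches to the 5 motifs in the 28 promoter windows of 22 pathway genes, by the distance in bases from the annotated start site to the first base of the match. Rows are windows, with a number where a gene has several. NF-Y boxes appear in 18 of the 22 genes and the full sterol regulatory element in Hmgcs1 alone of these 22. Fdps, Fdft1, Sqle and Stard4 had no window and were not searched.

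All 25 measured members lay above the 50th percentile of signal on all 3 arrays, so none entered the comparison through a single array. That percentile served as a floor for other genes, and 11596 genes that reached it on at least 1 array were compared in the same way. Because dim genes vary more, a second background used the 6625 genes whose mean level reached the 75th percentile, here called bright genes, which include 23 of the members. A gene was counted as past the limit if its log2 ratio was at least 0.32 above or below 0. No member was 2-fold apart in any comparison, while 1.35% of compared genes were for Q84E over wild-type ATP11A, 1.45% for wild-type ATP11A over parental and 2.42% for Q84E over parental.

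**Figure D2:**
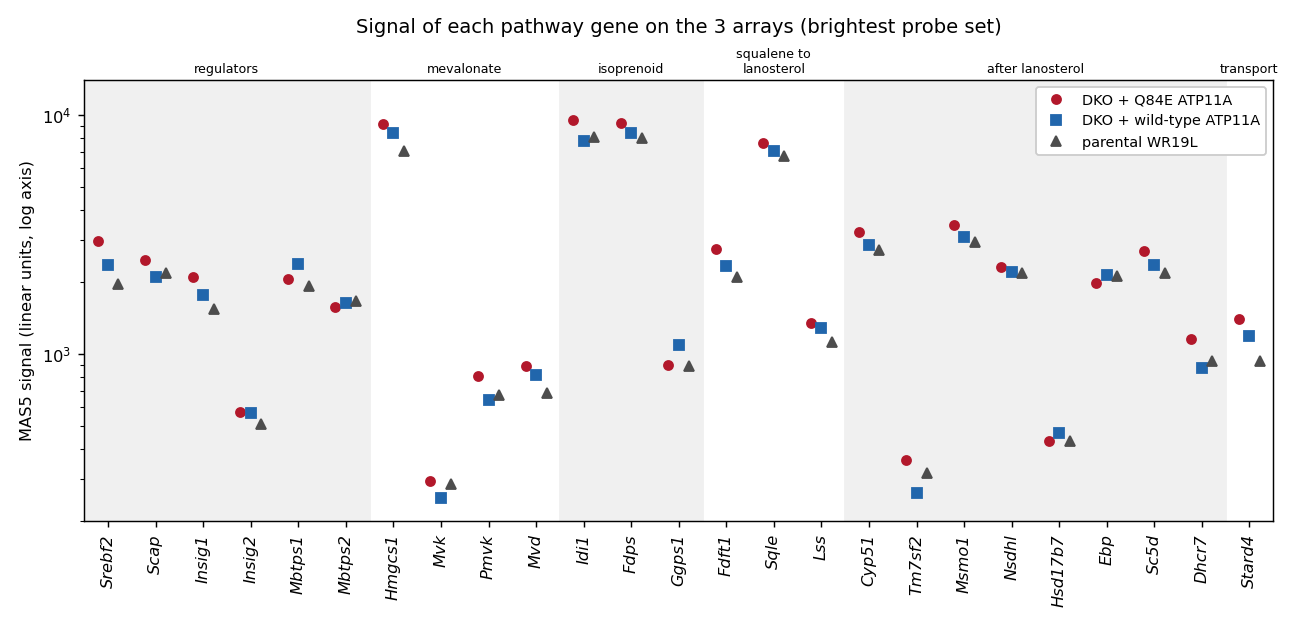
MAS5 signal of the brightest probe set of each of the 25 measured pathway genes, on a log axis, for the Q84E, wild-type ATP11A and parental arrays, 1 array each, with genes grouped by role. The Q84E array is the highest of the 3 for Srebf2, at 2987, and the parental array the lowest, at 1968, while Mbtps1 is highest on the wild-type ATP11A array, at 2388.

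Setting Q84E against wild-type ATP11A cells asks how expression of the sterol pathway differs between the DKO line with the mutant pump and that with the normal one. These lines may also differ in derivation. Of the 25 members, 20 had a higher signal in Q84E cells and 5 a lower one, and the median log2 ratio was 0.17, from -0.27 for Ggps1 to 0.47 for Tm7sf2. Among compared genes 58.1% lay above 0, with a median of 0.046, and among bright genes 51.9%, with a median of 0.0073. Past the limit were 4 members, Tm7sf2, Dhcr7, Srebf2 and Pmvk, all higher, and none was lower by as much. Tm7sf2 stayed past it under each of the 11 other settings tried, and Dhcr7 under all but a common median of the arrays. Srebf2 and Pmvk each dropped under it in several. Settings of floor, filter and probe set choice could not move Tm7sf2 or Dhcr7, which have 1 probe set each, above the floor. Only the other scalings and the pseudocount could. That 4 of 25 is close to the share of all compared genes past the same limit, 16%, and 7.24% of them were lower. Among the 23 bright members 3 were higher, against 7.82% of bright genes, and none was lower, against 3.91%.

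These counts depend on how the arrays are scaled. The median signal of all probe sets was higher on the Q84E array than on the others, and setting it equal on all arrays lowered the log2 ratios of Q84E over either of the others by 0.14. The median was then 0.028 for the members and -0.091 for compared genes, 0.12 apart as before. On that scale 1 member, Tm7sf2, was past the limit as higher and 2, Mbtps1 and Ggps1, as lower. Above 0 were 14 of 25 members, against 33.2% of compared genes. Past the limit were 9.43% of compared genes as higher and 15.9% as lower. With quantile normalization 3 members were higher and none lower, and 19 lay above 0 with a median of 0.17. Of compared genes 11.8% were then higher, 10.9% lower and 47.9% above 0. Of the 20 members above 0, 6 turned below 0 under at least 1 of the other scalings: Insig2, Hmgcs1, Mvd, Sqle, Lss and Nsdhl.

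Among the regulators, Srebf2, the gene of SREBP2, had a signal of 2987 in Q84E cells, 2371 in wild-type ATP11A cells and 1968 in parental cells. Its log2 ratio was 0.33 for Q84E over wild-type ATP11A, against a probe set error of 0.097, and the ratio of its other probe set was 0.22. Srebf2 lay at percentile 84.7 of the ratios of compared genes. Insig1, whose protein retains SCAP in the endoplasmic reticulum and which is itself a target of SREBP2, followed the same order, at 2099 in Q84E, 1766 in wild-type ATP11A and 1539 in parental cells, a log2 ratio of 0.25. Insig2, the retention protein gene that is not driven by SREBP2 in the same way, had 571, 568 and 510 in Q84E, wild-type ATP11A and parental cells. Its ratio of 0.0075 for Q84E over wild-type ATP11A was within the error of 0.17. Scap, the escort of SREBP2, had 2470 in Q84E cells, 2113 in wild-type ATP11A cells and 2191 in parental cells, with a log2 ratio of 0.22.

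The genes of the proteases that release SREBP2 did not share that order. Mbtps1, the site-1 protease of the Golgi, had 2058 in Q84E cells, 2388 in wild-type ATP11A cells and 1926 in parental cells, so the wild-type ATP11A array was the high one. Its log2 ratio for Q84E over wild-type ATP11A was -0.21, and its 3 probe sets lay between -0.22 and -0.096. Mbtps2, the protease that cuts SREBP2 within the membrane, had 1573, 1642 and 1674 in Q84E, wild-type ATP11A and parental cells, a ratio of -0.062 that was within the error of 0.17.

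In the mevalonate segment, all 4 measured enzymes had positive ratios for Q84E over wild-type ATP11A, 2 of which, those of Hmgcs1 and Mvd, fell below 0 with a common median. Hmgcs1, the HMG-CoA synthase, had 9216 in Q84E cells, 8392 in wild-type ATP11A cells and 7051 in parental cells. Its log2 ratio was 0.14, and its 5 probe sets ranged from 0.048 to 0.42. Pmvk, phosphomevalonate kinase, had 812 in Q84E cells against 646 in wild-type ATP11A cells, with 674 in parental cells, a log2 ratio of 0.33 from a single probe set. Mvd, which decarboxylates mevalonate diphosphate, had 890, 822 and 689 in Q84E, wild-type ATP11A and parental cells, a ratio of 0.12. Mvk, mevalonate kinase, had 296, 250 and 288 in the same order and a ratio of 0.25, but its other probe set gave -0.38, so no direction can be read for it.

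The isoprenoid enzymes were split. Idi1, isopentenyl diphosphate isomerase, had 9506 in Q84E cells, 7797 in wild-type ATP11A cells and 8108 in parental cells, a log2 ratio of 0.29, while its other probe set gave -0.15. Fdps, which makes farnesyl diphosphate, the branch point to sterols, had 9274, 8424 and 8030 in Q84E, wild-type ATP11A and parental cells, a ratio of 0.14. Ggps1 makes geranylgeranyl diphosphate, a lipid anchor of membrane proteins, and so leads away from sterols. Its signal was 905 in Q84E cells, 1091 in wild-type ATP11A cells and 893 in parental cells, a log2 ratio of -0.27, the lowest of the set, with other probe sets at -0.14, -0.14 and 0.24.

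From squalene to lanosterol, all 3 genes were above 0 on the deposited scale, and Sqle and Lss were below 0 with a common median. Fdft1, squalene synthase, the first step given over to sterols, had 2752 in Q84E cells, 2342 in wild-type ATP11A cells and 2101 in parental cells, a log2 ratio of 0.23, with 0.17 by its second probe set above the floor. Sqle, squalene epoxidase, a controlled step of the pathway, had 7667, 7100 and 6734 in Q84E, wild-type ATP11A and parental cells, a ratio of 0.11. Lss, lanosterol synthase, had 1350, 1284 and 1127 in the same order and 0.072, with its other probe sets at -0.11 and 0.28. The 3 brightest probe sets thus shared an order, with Q84E the highest array and parental the lowest.

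Of the 8 genes after lanosterol, 6 had a positive ratio for Q84E over wild-type ATP11A, although that of Nsdhl turned below 0 with a common median, and 2, Tm7sf2 and Dhcr7, were past the limit. Tm7sf2, a sterol reductase, had 363 in Q84E cells, 262 in wild-type ATP11A cells and 318 in parental cells. Its log2 ratio of 0.47 is the highest of the set, but it comes from 1 probe set in the dimmest class, where the error is 0.31. Dhcr7, the reductase of the last step to cholesterol, had 1159 in Q84E cells, 872 in wild-type ATP11A cells and 935 in parental cells, a log2 ratio of 0.41 against an error of 0.17, also from 1 probe set. For both genes the wild-type ATP11A array was the lowest of the 3.

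Sc5d, a sterol desaturase, had 2695 in Q84E cells, 2360 in wild-type ATP11A cells and 2180 in parental cells, a log2 ratio of 0.19, with 0.26 and 0.81 by its other probe sets. Cyp51, the lanosterol demethylase, had 3246, 2876 and 2739 in Q84E, wild-type ATP11A and parental cells, a ratio of 0.17, and its 3 probe sets lay between 0.092 and 0.17. Msmo1, the sterol methyl oxidase, had 3462, 3087 and 2952 in the same order and a ratio of 0.17. All 3 had the Q84E array as the highest. Nsdhl, a sterol dehydrogenase, had 2326, 2202 and 2185 in Q84E, wild-type ATP11A and parental cells, a ratio of 0.079 that was within the error of 0.097. Hsd17b7, a sterol ketone reductase, had 432, 471 and 436 in that order and -0.12, and Ebp, a sterol isomerase, had 1977, 2140 and 2114 and -0.11, so these 2 were lower in Q84E cells by the brightest probe set. The other probe sets of Hsd17b7 gave -0.083 and 0.066.

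Stard4, which carries cholesterol between membranes and is a target of SREBP2, had 1402 in Q84E cells, 1196 in wild-type ATP11A cells and 940 in parental cells. Its log2 ratio for Q84E over wild-type ATP11A was 0.23, and its other probe sets gave 0.36 and 0.46.

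**Figure D3:**
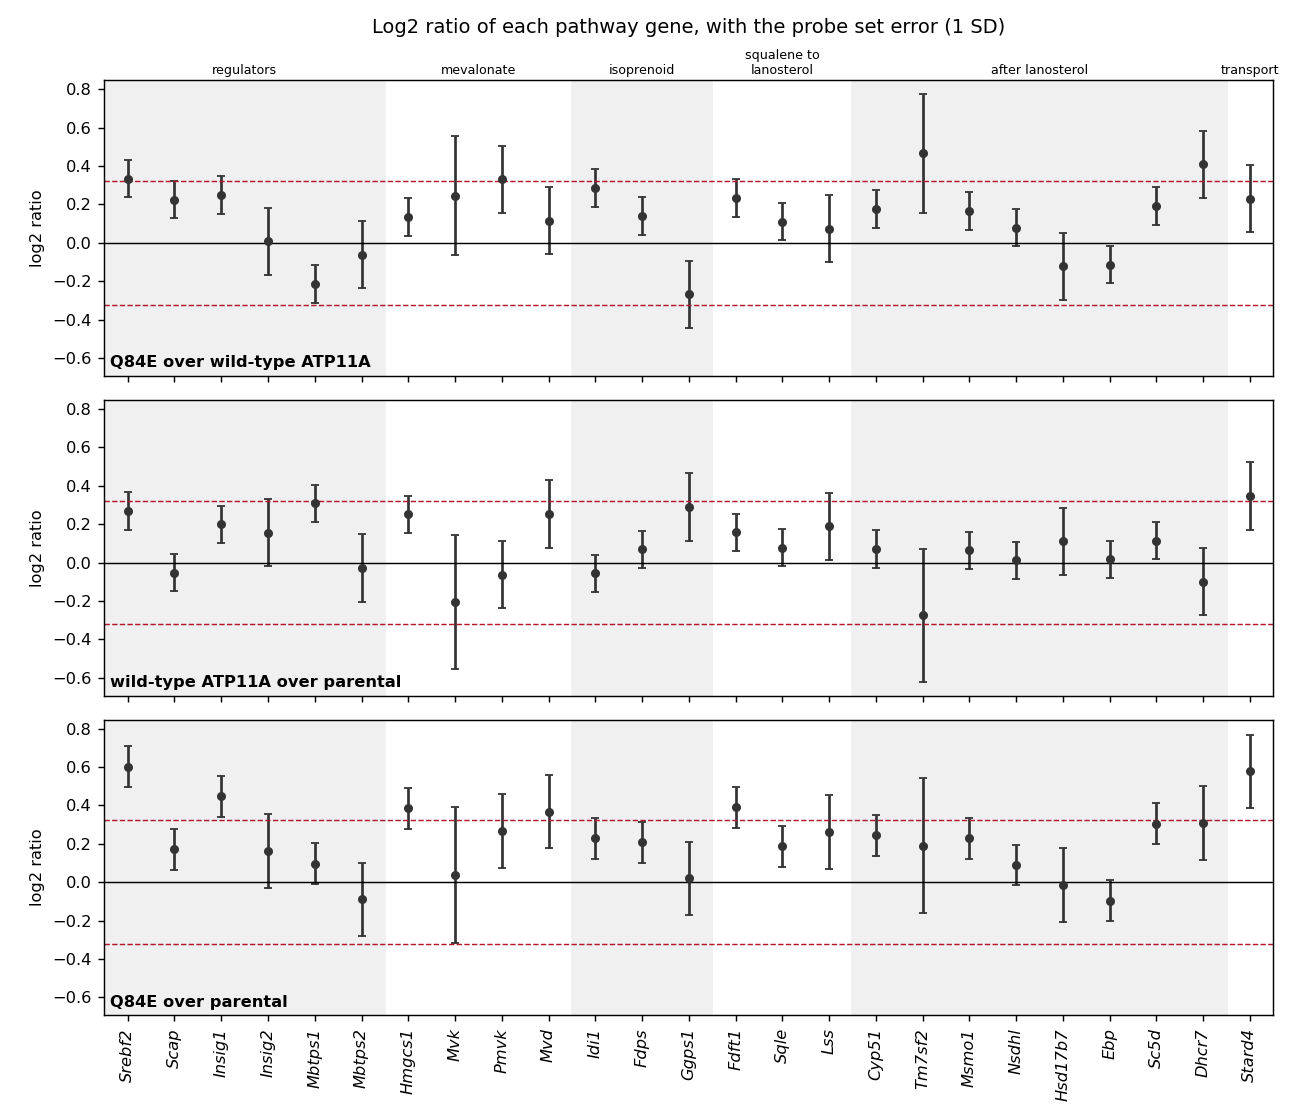
Log2 ratio of each of the 25 measured pathway genes in the 3 comparisons, with bars of 1 SD of the probe set error for the gene's class of signal and dashed lines at 0.32 above and below 0. For Q84E over wild-type ATP11A 20 of 25 points lie above 0 and 4 above the upper line, which become 14 and 1 with a common median of the arrays. Of compared genes 58.1% lie above 0 as deposited and 33.2% with a common median.

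For wild-type ATP11A over parental cells, which asks how the sterol pathway differs between the knockout line with a normal pump and the line it came from, 18 of 25 members were above 0 and 7 below. The median log2 ratio was 0.076, from -0.28 for Tm7sf2 to 0.35 for Stard4. No member changed sign under another scaling, but a common median of the arrays lowered these ratios by only 0.0057. Among compared genes 54.2% lay above 0 with a median of 0.0057, and among bright genes 52.5% with a median of 0.0074. Stard4 was the 1 member past the limit as higher, against 11.1% of compared genes and 4.5% of bright genes. No member was past it as lower, against 9.58% and 4.5%. Stard4 stayed past it under all settings but a pseudocount of 100, although settings of floor and filter could not move it. All 3 Stard4 probe sets lay between 0.30 and 0.36. Next came Mbtps1 at 0.31, with probe sets up to 0.62, Ggps1 at 0.29, with other probe sets from -0.23 to 0.040, and Srebf2 at 0.27 and 0.18 by its probe sets. Mvd at 0.25 and Hmgcs1 at 0.25 followed, and the 5 probe sets of Hmgcs1 lay between 0.18 and 0.58. Below 0 were Tm7sf2, Mvk at -0.21, Dhcr7 at -0.10, Pmvk at -0.063, Idi1 at -0.056, Scap at -0.052 and Mbtps2 at -0.028, none of them by more than its error. The other probe set of Mvk gave 0.12 and that of Idi1 0.32, both above 0. Signs did change with the choice of probe set. With the mean of all probe sets Idi1 turned above 0, to 0.13. Lss turned below 0, from 0.19 to -0.048, and Hsd17b7 from 0.11 to -0.074.

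Between Q84E and parental cells the median and the highest ratio of the pathway were the largest of the 3 comparisons. Of the 25 members 22 were above 0 and 3, Ebp, Mbtps2 and Hsd17b7, were below, with a median log2 ratio of 0.23. Among compared genes 59.7% lay above 0 with a median of 0.068, and among bright genes 53.5% with a median of 0.019. Past the limit as higher were 6 members, Srebf2, Stard4, Insig1, Fdft1, Hmgcs1 and Mvd, against 19.2% of compared genes. All 6 are bright genes, of which 11.2% passed the same limit. No member was past it as lower, against 9.09% of compared and 6.85% of bright genes. With a common median of the arrays 2 of these 6, Srebf2 and Stard4, stayed past the limit and none of the 25 was lower. On that scale 18 lay above 0 and the median was 0.087. Of compared genes 11.2% were then higher, 18.9% lower and 37.0% above 0. With quantile normalization 7 were higher and none lower, and 20 lay above 0. Of compared genes 14.2% were then higher, 12.3% lower and 50.4% above 0. The 4 members that turned below 0 under another scaling were Mbtps1, Mvk, Ggps1 and Nsdhl.

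Srebf2 was 1.52-fold higher in Q84E than in parental cells, a log2 ratio of 0.60 against an error of 0.11, at percentile 93.1 of compared genes, and its other probe set gave 0.40. Stard4 was 1.49-fold higher, with its probe sets between 0.58 and 0.82 on the log2 scale, and lay at percentile 92.4. Insig1 was 1.36-fold higher, a log2 ratio of 0.45. Srebf2, Stard4 and Insig1 thus had the 3 highest ratios of the set. Fdft1, at 1.31-fold, had both probe sets above the floor at 0.39, and Hmgcs1, at 1.31-fold, had its 5 probe sets between 0.31 and 1.0. Mvd was 1.29-fold higher, with 0.37 and 0.62 by its probe sets. The Q84E over parental ratio of each gene is the sum of its other 2 ratios, and the 3 comparisons share arrays, so they are not separate evidence.

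**Figure D4:**
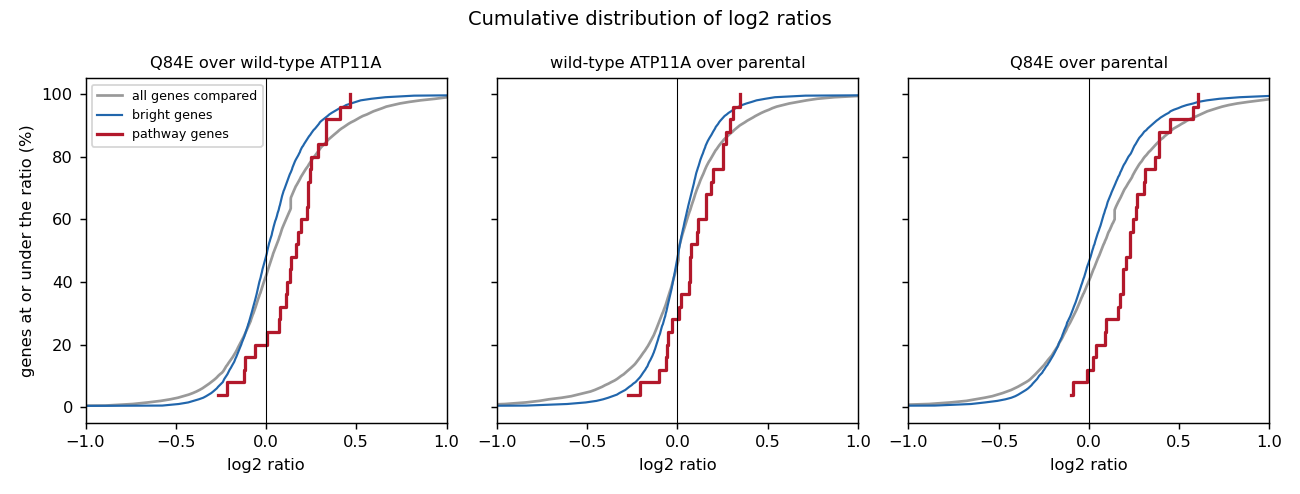
Cumulative share of genes, in percent, at or under a given log2 ratio for the 25 measured pathway genes, the 11596 compared genes and the 6625 bright genes in the 3 comparisons. The pathway curve lies to the right at the middle, with medians of 0.17, 0.076 and 0.23 against 0.046, 0.0057 and 0.068 for compared genes, and a common median of the arrays moves the curves of both comparisons with Q84E to the left together.

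Agreement between probe sets limits these values. Of the 25 genes, 14 had at least 2 probe sets above the floor on all arrays, of 57 probe sets in all, 51 of which were above it. For Q84E over wild-type ATP11A all probe sets of 9 of the 14 genes had the same sign, and Mvk, Idi1, Ggps1, Lss and Hsd17b7 were split. For wild-type ATP11A over parental 6 genes had 1 sign, and for Q84E over parental 10 did. A further 8 genes have a single probe set, among them Insig1, Pmvk, Tm7sf2 and Dhcr7, and cannot be checked in this way. For 7 members the brightest probe set is of a type that can match several transcripts.

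**Figure D5:**
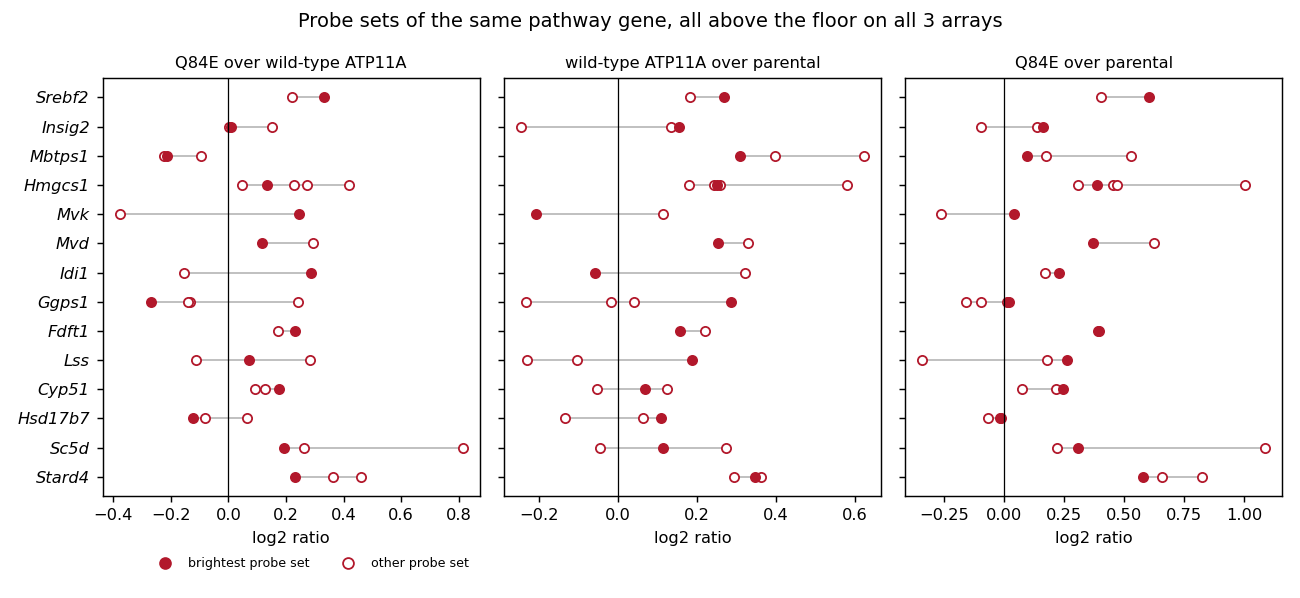
Log2 ratios of all probe sets above the floor for the 14 pathway genes with at least 2 of them, in the 3 comparisons, with the brightest probe set filled. Srebf2, Hmgcs1, Mvd, Fdft1 and Stard4 have all probe sets above 0 in each comparison as deposited, and the lowest Hmgcs1 and Mvd values for Q84E over wild-type ATP11A, 0.048 and 0.12, turn below 0 with a common median of the arrays.

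Genes next to the pathway were read from lists of related functions, over the genes above the floor on all 3 arrays. Their counts for Q84E over wild-type ATP11A are set beside the same shares of compared genes as above, 58.1% above 0, 16% past the limit as higher and 7.24% as lower. They are on the deposited scale, and the counts with a common median of the arrays, added after seeing the data, follow each. With a common median 33.2% of compared genes were above 0, 9.43% past the limit as higher and 15.9% as lower. Of 12 genes of sterol-regulated degradation and SREBP turnover, 5 were above 0 for Q84E over wild-type ATP11A, with a median of -0.024. Rnf145, a ubiquitin ligase of the endoplasmic reticulum, was the 1 gene past the limit, with 9258 in Q84E cells, 7394 in wild-type ATP11A cells and 6480 in parental cells, a log2 ratio of 0.32. Marchf6, the ligase that degrades squalene epoxidase, was at 0.15, Pgrmc1, a binding protein of sterol enzymes, at -0.15 and the conjugating enzyme gene Ube2g2 at -0.099. The median of this list lay below that of compared genes, 0.046, and with a common median of the arrays 2 of 12 were above 0 and none was past the limit.

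Of 15 genes that use isoprenoids, 9 were above 0, 2 were past the limit as higher and 1 as lower, with a median of 0.0056, shares close to those of compared genes. With a common median of the arrays 5 were above 0, and 2 were past the limit in each direction. Dhdds and Nus1 encode the subunits of the enzyme that makes dolichol precursors, and they lay on opposite sides. Dhdds had 979 in Q84E cells, 651 in wild-type ATP11A cells and 816 in parental cells, a log2 ratio of 0.59, with its 3 probe sets between 0.082 and 0.59. Nus1 had 3893, 5005 and 4907 in the same order, a ratio of -0.36, with its 5 probe sets between -0.36 and -0.12. Fntb, a subunit of farnesyltransferase, was at 0.49 at low signals of 193 in Q84E cells against 138 in wild-type ATP11A cells, and Icmt, which methylates prenylated proteins, was at 0.31.

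All 4 genes of other sterol steps were above 0, with a median of 0.17: the mitochondrial thiolase gene Acat1 at 0.39, its 3 probe sets between -0.0070 and 0.39, the ester hydrolase gene Nceh1 at 0.19, the scaffold gene Erg28 at 0.16, and Lbr, the nuclear envelope sterol reductase, at 0.090. With a common median of the arrays 3 of the 4 were above 0, Lbr was below, and Acat1 was no longer past the limit. Lipogenic genes driven by SREBP1 had 9 of 9 above 0, 3 of them past the limit, with a median of 0.24. With a common median of the arrays none of the 9 was past the limit, 8 were above 0, Acly was below, and the median was 0.10. The lipogenic list included Acss2 at 0.44, Acaca at 0.43, with -0.40 by its other probe set, Srebf1 at 0.40, with 2981 in Q84E cells and 2254 in wild-type ATP11A cells, and Fads2 at 0.25, with its 3 probe sets between -0.12 and 0.29. Of 11 sterol transport genes 7 were above 0, with a median of 0.070, 3 were past the limit as higher, Gramd1b at 0.61, Osbpl2 at 0.40 and Npc2 at 0.36, whose 3 probe sets ran from -0.068 to 0.49, and 1, Npc1, was lower at -0.54 and signals of 75.3 in Q84E cells and 109.2 in wild-type ATP11A cells. With a common median of the arrays 5 of the 11 were above 0, and Gramd1b and Npc1 were the 2 still past the limit.

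The wild-type ATP11A array had the lowest summed signal of T cell markers. The summed signal of the 9 measured markers was 35996 in Q84E cells, 31687 in wild-type ATP11A cells and 36559 in parental cells. Bright probe sets weigh most in that sum. Past the limit as higher in Q84E than in wild-type ATP11A cells were 4 of the 7 above the floor, against 16% of compared genes. With a common median of the arrays 2 of 7 were, against 9.43%. Lat, the largest term of the sum, went the other way, with 16834 in Q84E cells, 17599 in wild-type ATP11A cells and 16203 in parental cells. By the brightest probe set, Scap, Mvk, Pmvk, Idi1, Tm7sf2 and Dhcr7 also had their lowest signal on the wild-type ATP11A array. The other probe sets of Mvk and Idi1 were instead highest on that array. The part of a difference in that 1 culture or array in the ratios of these genes was not tested. Srebf2, Insig1, Hmgcs1, Mvd, Fdft1 and Stard4 had the parental array as the lowest and the Q84E array as the highest. So did Insig2, Fdps, Sqle, Lss, Cyp51, Msmo1, Nsdhl and Sc5d by the brightest probe set, all on the deposited scale. With a common median of the arrays, Q84E was no longer the highest array for Insig2, Hmgcs1, Mvd, Sqle, Lss and Nsdhl. The share of compared genes with that order was not counted.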

How the data were processed

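The authors deposited linear intensity values, MAS5 signals of 45101 probe sets. The method is named in the submitters' processing notes, without a version. The trimmed mean without 2% at each end was 500.0 on every array, so the authors had scaled the arrays, and that scaling was kept. Groups were taken from the labels. A platform annotation table gave 34958 probe sets with exactly 1 symbol, while 932 with several and 9211 not listed were left unnamed.

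Each gene was read from its brightest probe set by mean log2 signal. The 11596 genes at or above the 50th percentile on at least 1 array were compared, with lower signals set to that percentile, 55.5, 50.5 and 50.3 on the Q84E, wild-type ATP11A and parental arrays. Ratios are differences of log2 values. For the error, the log2 ratios of a gene's 2 probe sets of highest signal, within 1 log2 unit of each other and above the floor, were subtracted, and the SD over genes was divided by the square root of 2. With 1 array per group nothing was tested. Members and lists were chosen with earlier results of these data known. All members are named, and of each further list up to 4 genes with the largest ratio of Q84E over wild-type ATP11A above the floor. The alternatives were 11 settings of probe set choice, scaling, floor, filter and pseudocount. The background of bright genes and the shorter motif were added after seeing the data. Python 3.11.15, numpy 2.4.6 and pandas 2.3.3 were used, and the steps were tested on simulated data.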

Additional observations from a re-analysis of the deposited data

How the results depend on the processing

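Under the 11 alternatives the median log2 ratio of the members ranged from 0.028 to 0.17 for Q84E over wild-type ATP11A, from 0.037 to 0.076 for wild-type ATP11A over parental and from 0.087 to 0.24 for Q84E over parental, above the median of compared genes in each case. With a common median of all probe sets, which lowers each ratio by construction, the medians were 0.028 for Q84E over wild-type ATP11A and 0.087 for Q84E over parental. For Q84E over wild-type ATP11A 1 member was then past the limit of 0.32 as higher and 2 as lower, and for Q84E over parental 2 were higher. For Q84E over wild-type ATP11A 2 members were higher with the median ratio of compared genes set to 0, and 2 with a pseudocount of 100 in place of the floor. For wild-type ATP11A over parental 2 members were higher with the mean of all probe sets and 0 with the pseudocount; no tool was run for a test, since there is 1 array per group. The member added with the probe set mean was Mbtps1, at 0.44, whose probe sets gave 0.31, 0.40 and 0.62. Of the values of single members under the alternatives, 769 moved by less than the probe set error and 53 by more, and no member past the limit changed sign. Many of the 769 could not move. Settings of floor and filter leave members above the floor as they are, and probe set choice leaves genes with a single unique probe set. The 769 are therefore no measure of stability. No paired analysis was possible because each group has 1 array, and no array could be left out for the same reason. Signals near the floor limit the dimmer probe sets.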

Other observations

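A pair of sterol-related genes reached the floor on the Q84E array alone. Ch25h, a hydroxylase that turns cholesterol into an oxysterol, had a signal of 82.7 in Q84E cells, 26.1 in wild-type ATP11A cells and 36.2 in parental cells, where the floors were 55.5, 50.5 and 50.3. Nr1h3, the gene of the oxysterol receptor LXR-alpha, had 68.3 in Q84E cells, 40.4 in wild-type ATP11A cells and 29.6 in parental cells. Both entered the comparison through the array on which they are high, so these values are given as a description, and the genes were chosen after their values were seen.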
